A study of Mus musculus with 18 samples.

Results

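RNA of mouse embryonic fibroblasts with an induced dCas9 repressor was compared with RNA of fibroblasts with an induced dCas9 control, both after 24 h of doxycycline. The comparison used 6 of the 18 libraries of the series, 3 from each line, chosen by their labels and not by any measured value. It covered the 16216 genes that passed a filter on low counts. The same difference between the lines without doxycycline, from 6 other libraries, is given beside it.

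The study used mouse embryonic fibroblast lines in which a dCas9 protein, aimed at the major satellite repeat, could be switched on with doxycycline. The induced repressor group carried inducible dCas9-KM, which the labels call the repressor, and received 100 ng/ml doxycycline for 24 h. The induced control group carried inducible dCas9-control, with no effector named, and received 10 ng/ml doxycycline for 24 h. The uninduced repressor and uninduced control groups were the same lines without doxycycline, and each of these 4 groups had 3 libraries. The remaining 6 libraries came from a line with the activator dCas9-VPR, with and without 10 ng/ml doxycycline for 6 h, and entered only the estimate of the spread. All lines grew in the same tetracycline-free medium with hygromycin. Effector, cell line and doxycycline dose all changed together between the induced groups, so their parts in a difference cannot be told apart. Nothing in the labels states that the 3 numbered libraries of a group were grown separately, and p-values then reflect only the spread among these libraries, which may be technical. Whether a line was 1 clone, and which promoter drove the dCas9 protein, is not given in the sources used here.

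dCas9 is a Cas9 that binds a sequence chosen by a guide RNA but no longer cuts it, so it can carry a repressor or an activator to that sequence. The major satellite is the tandem repeat that fills mouse pericentromeric heterochromatin, the compact chromatin beside the centromere. That chromatin is marked by histone H3 lysine 9 methylation, binds HP1 proteins, and in fibroblast nuclei gathers into bright clusters called chromocentres.

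The libraries of the induced repressor held 16275552 to 19156542 counts and those of the induced control 18455058 to 23058761. Beyond counting error, libraries of a group varied with a common biological coefficient of variation of 0.0246. Levels are given as CPM, a gene's counts divided by the library total after TMM scaling and multiplied by 1000000. A gene is called higher or lower where edgeR's quasi-likelihood test gave an adjusted p under 0.05 (Benjamini-Hochberg, over every gene tested). Of 11 fibroblast markers 10 passed the filter, led by the collagen gene Col1a1 and the fibronectin gene Fn1, and Thy1 was at 0 in both induced groups. The summed level of the markers was 18550 to 18880 CPM in the induced repressor libraries and 20690 to 21310 CPM in the induced control libraries. Of the markers of other cell types, epithelial Epcam and Krt5, muscle Myod1 and Myog, neural Sox10, Map2 and Elavl4, fat Adipoq and pluripotency genes Pou5f1 and Zfp42 were at 0 in both induced groups. Others were counted, among them Krt14 with 146 counts in the induced repressor and 201 in the induced control, Tnnt2 with 386 and 356, Tubb3 with 2936 and 2320, Cd68 with 270 and 336, Lpl with 8291 and 11152 and Nanog with 62 and 73. In bulk RNA, fewer cells of a type and less RNA per cell cannot be told apart.

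The targeted repeat was followed through 13 annotated gene models made largely of 1 tandem unit, 10 of them at one end of chromosome 9, 2 on chromosome 2 and 1 on chromosome 14. The models were found from transcript sequence alone. One unit of the noncoding model Gm26870 (ENSMUSG00000097312.1, GRCm38 chr9:3000282-3038313, minus strand) is shown because it is the kind of sequence that the study aimed dCas9 at. The 17 capitals mark bases that differ from the base 1 unit further along the same transcript, and 95.9% of the compared bases of the transcript are the same 1 unit on.
Gm26870 unit: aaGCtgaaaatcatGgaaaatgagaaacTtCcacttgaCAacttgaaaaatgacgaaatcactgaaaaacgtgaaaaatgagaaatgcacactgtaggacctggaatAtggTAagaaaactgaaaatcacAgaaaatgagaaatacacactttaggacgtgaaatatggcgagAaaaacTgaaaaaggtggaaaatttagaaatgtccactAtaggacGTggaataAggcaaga

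The summed level of these models was 0.845, 0.747 and 0.901 CPM in the induced repressor libraries, against 2.63, 1.48 and 2.56 CPM in the induced control libraries. The groups did not overlap, which also held for 25.7% of the genes tested. The mean was 0.831 ± 0.0780 CPM in the induced repressor and 2.22 ± 0.646 CPM in the induced control (SD, n = 3 each), a fitted ratio of 0.377. Without doxycycline the sum was 6.41, 5.50 and 5.92 CPM in the repressor line and 7.34, 7.86 and 5.83 CPM in the control line, and these groups overlapped. The edgeR fit over all 18 libraries did not call the induced difference (log2 fold change −1.41, 95% interval −2.95 to 0.14, adjusted p = 0.273, unadjusted p = 0.0708). By exact permutation of the 6 libraries the two-sided p was 0.1, and no split of 3 against 3 can give a smaller one. The uninduced difference was not called either (log2 fold change −0.27, adjusted p = 0.837), nor was the difference between the 2 (log2 value −1.14, adjusted p = 0.638).

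The call on the satellite sum depended on the libraries fitted and on the tool. In a fit of the 12 libraries of the repressor and control lines, the log2 fold change was −1.40 (95% interval −1.89 to −0.92, adjusted p = 8.76e-06) and the difference between induced and uninduced was called too (log2 value −1.14, adjusted p = 0.00458). The induced difference was also called from the 6 compared libraries alone (adjusted p = 2.05e-05) and by DESeq2 on all 18 libraries (adjusted p = 4.75e-05). The satellite sum was 4032 ± 710 CPM in the induced activator libraries (SD, n = 3), which are in the 18-library fit and not in the smaller ones. The sums are small: the 3 libraries of a group together held 46 counts in the induced repressor, 146 in the induced control, 363 in the uninduced repressor and 428 in the uninduced control. The most abundant single model was Gm10800 (ENSMUSG00000075014.1, chr2:98666547-98667301), with 0.302, 0.448 and 0.265 CPM in the induced repressor libraries and 1.26, 0.739 and 1.49 CPM in the induced control libraries (adjusted p = 0.372, and from 0.000150 to 0.690 over the alternatives). How reads of these near-identical copies were placed, or whether some were discarded, is not given in the sources used here. The sum does not depend on which of the copies a read was placed on, but it may miss discarded reads. Gm26870, Gm10721, Gm10720, Gm10719 and Gm10715 had no count in either induced group.

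**Figure D1:**
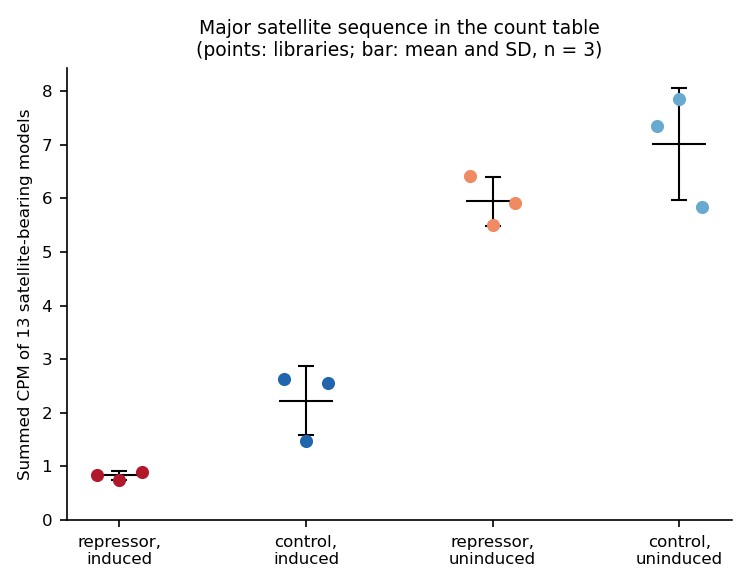
Summed CPM of the 13 satellite-bearing models (vertical axis, linear from 0) in each library of the 4 groups, with the mean and SD (n = 3). The 3 induced repressor libraries lie at 0.747 to 0.901 CPM, below the 3 induced control libraries at 1.48 to 2.63 CPM, and both uninduced groups lie above 5 CPM.

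Across the transcriptome 821 genes were higher and 950 lower in the induced repressor than in the induced control, together 10.9% of those tested (5.06% higher and 5.86% lower). Most differences were small. The median absolute log2 fold change of the called genes was 0.19, and 97 genes were at least 1.5-fold higher and 61 at least 1.5-fold lower. A difference of at least 2-fold was called for 37 genes higher and 27 lower, of which 4 higher and 0 lower reached 5 CPM in the higher group. Without replicate 2 of the induced repressor the counts fell to 514 higher and 615 lower, and DESeq2 called 500 higher.

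The uninduced lines differed at 254 genes, 140 higher and 114 lower in the repressor line, which is 1.57% of those tested (0.863% higher and 0.703% lower). Of the 1771 genes called between the induced lines, 107 were called in the same direction without doxycycline, 37 higher and 70 lower. These are 6.04% of the induced calls and 42.1% of the uninduced calls. Another 32 genes were called in opposite directions, and 1632 were called between the induced lines only. Whether the difference itself was larger or smaller with doxycycline was tested as an interaction, which called 442 genes, 2.73% of those tested (1.19% higher and 1.54% lower). Of the 1771 induced calls 374 passed this test, 170 higher and 204 lower, all with the interaction in the direction of the induced difference. Of the 1632 genes called between the induced lines only, 335 passed it, and for the other 1297 the induced and uninduced differences were not shown to differ.

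**Figure D2:**
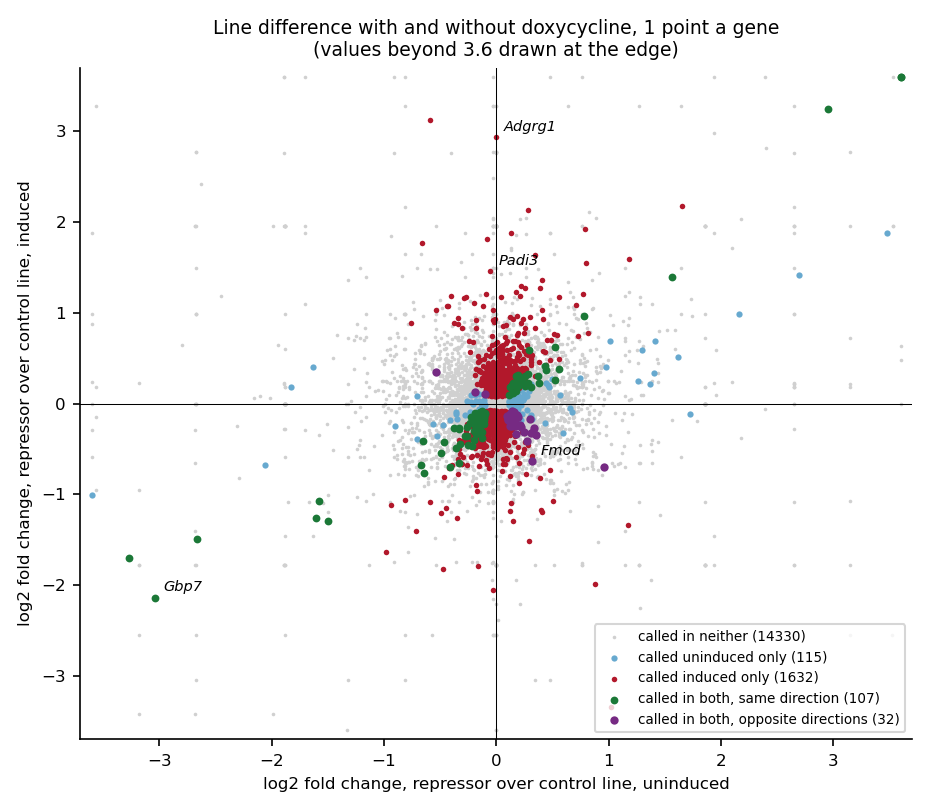
Log2 fold change of the repressor over the control line for each gene, induced (vertical axis) against uninduced (horizontal axis), coloured by the comparison in which the gene was called. The 1632 genes called between the induced lines only spread along the vertical axis, the 107 called in both in the same direction lie along the diagonal, and the 32 called in opposite directions lie mostly at the lower right of the centre.

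The gene with the largest difference at a level over 5 CPM was Adgrg1 (ENSMUSG00000031785.15, chr8:94974751-95014217), which encodes the adhesion G protein-coupled receptor GPR56, a receptor for extracellular matrix ligands. It had 119.6, 115 and 114 CPM in the induced repressor libraries, against 15.3, 14.2 and 15.9 CPM in the induced control libraries. The uninduced libraries had 14.2, 14.2 and 14 CPM in the repressor line and 15.2, 13.2 and 14.1 CPM in the control line. The induced repressor thus stood 7.67-fold above the induced control (log2 fold change 2.94, SE 0.055, adjusted p = 2.33e-57), while the uninduced lines were not shown to differ (log2 fold change −0.0058, adjusted p = 1). The interaction was called with a log2 value of 2.94 (adjusted p = 7.89e-39).

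Trim24 (ENSMUSG00000029833.17, chr6:37870811-37966296), a chromatin reader and transcriptional co-regulator of the TRIM family, had 162, 162 and 164 CPM in the induced repressor libraries, against 88.0, 85.7 and 87.8 CPM in the induced control libraries. The induced log2 fold change was 0.90 (SE 0.034, adjusted p = 2.06e-37). Both uninduced groups averaged near the induced control, 84.4 CPM in the repressor line and 85.5 CPM in the control line. Slc29a3 (ENSMUSG00000020100.15, chr10:60712072-60752794), a nucleoside transporter of lysosomes, showed the same arrangement. It had 80.7, 76.5 and 78.8 CPM in the induced repressor libraries and 40.4, 40.6 and 42.2 CPM in the induced control libraries, against 37.7 CPM on average in the uninduced repressor and 37.9 CPM in the uninduced control (induced log2 fold change 0.94, SE 0.042, adjusted p = 1.15e-32). For both genes the interaction was called, with log2 values of 0.93 (adjusted p = 1.82e-26) and 0.94 (adjusted p = 4.8e-21).

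A pair of glutathione S-transferase genes, whose products couple glutathione to reactive compounds, were among the 8 largest. Gstm5 (ENSMUSG00000004032.10, chr3:107895821-107898686) had 20.6, 21.4 and 24.4 CPM in the induced repressor libraries, against 8.53, 9.48 and 10.2 CPM in the induced control libraries (log2 fold change 1.23, SE 0.083, adjusted p = 1.9e-21), and its interaction was called (log2 value 1.06, adjusted p = 1.53e-08). Gstt1 had 4.95, 5.18 and 4.98 CPM in the induced repressor libraries and 2.32, 2.74 and 2.64 CPM in the induced control libraries (log2 fold change 0.96, adjusted p = 1.24e-06), with an interaction that missed the threshold (adjusted p = 0.0624). The induced groups overlapped for neither gene, which the naming rule required.

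Padi3 and Syt13 were expressed at low levels. Padi3, a peptidylarginine deiminase that converts arginine in proteins to citrulline, had 5.01, 4.68 and 5.83 CPM in the induced repressor libraries, against 2.26, 1.83 and 1.61 CPM in the induced control libraries (log2 fold change 1.46, SE 0.16, adjusted p = 3.33e-11). Syt13, an atypical synaptotagmin, had 8.57, 8.86 and 8.74 CPM in the induced repressor libraries and 3.58, 3.56 and 3.71 CPM in the induced control libraries (log2 fold change 1.27, SE 0.12, adjusted p = 3e-14). In both genes the induced repressor libraries lay above all other libraries of the 4 groups, and the interaction was called.

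**Figure D3:**
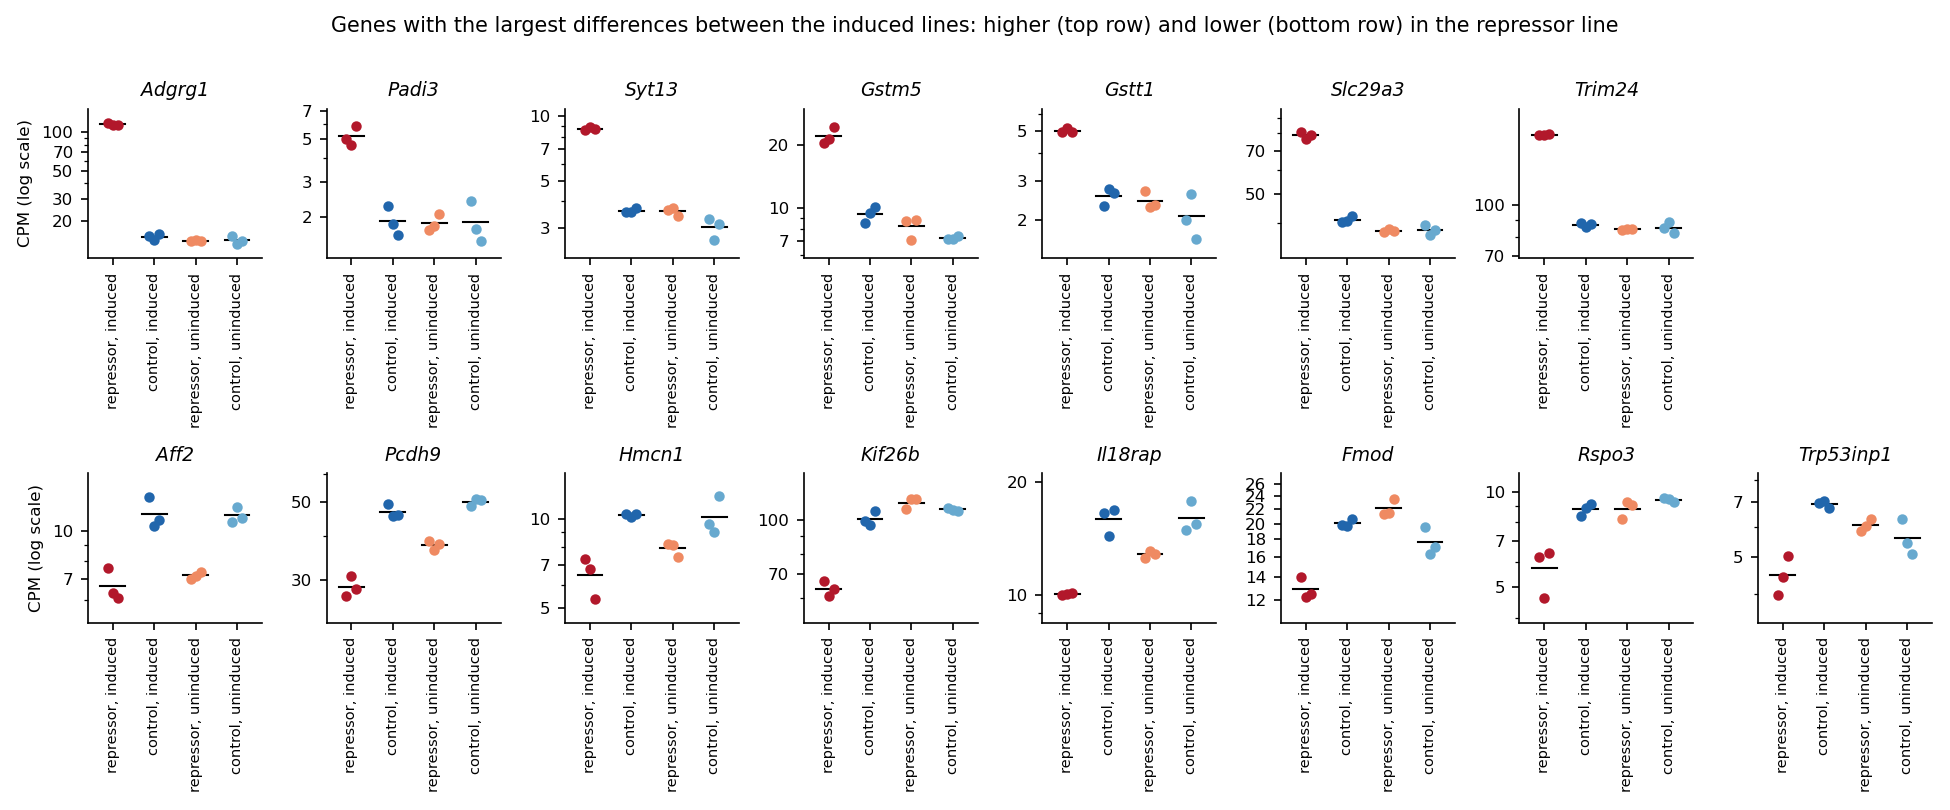
CPM on a log axis in each library (points) with the group mean (line) for 7 of the 8 genes with the largest positive and the 8 with the largest negative log2 fold change between the induced lines, among called protein-coding genes over 5 CPM whose groups did not overlap. In the upper row the induced repressor libraries stand alone above the other 3 groups. In the lower row the repressor line is also lower without doxycycline for Aff2, Pcdh9 and Il18rap but not for Kif26b, Fmod or Trp53inp1.

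The largest differences in the lower direction were smaller in size, and several were present before induction. Aff2 (ENSMUSG00000031189.12, chrX:69360294-69868037), a nuclear protein of the AF4/FMR2 family, had 7.60, 6.32 and 6.09 CPM in the induced repressor libraries, against 12.8, 10.4 and 10.8 CPM in the induced control libraries (log2 fold change −0.76, SE 0.10, adjusted p = 2.77e-08). The uninduced difference was nearly as large (log2 fold change −0.64, adjusted p = 1.61e-05). Pcdh9, a protocadherin of cell contacts, had 26.9, 30.8 and 28.2 CPM in the induced repressor libraries and 49.2, 45.4 and 45.9 CPM in the induced control libraries (log2 fold change −0.70, SE 0.051, adjusted p = 9.93e-20). It was lower without doxycycline too (−0.41, adjusted p = 1.39e-09), and the difference was larger with it (interaction log2 value −0.29, adjusted p = 0.00629). Il18rap, the accessory chain of the interleukin 18 receptor, had 10.0, 10.1 and 10.1 CPM in the induced repressor libraries and 16.6, 14.4 and 16.8 CPM in the induced control libraries, and was called lower in both comparisons (log2 fold change −0.66 induced and −0.33 uninduced).

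Kif26b (ENSMUSG00000026494.12, chr1:178529125-178939200), an atypical kinesin of cell polarity and adhesion, differed with doxycycline only. It had 67.03, 60.4 and 63.3 CPM in the induced repressor libraries, against 99.2, 96.5 and 106 CPM in the induced control libraries, and 112 CPM on average in the uninduced repressor against 107 CPM in the uninduced control. The induced log2 fold change was −0.67 (SE 0.039, adjusted p = 8.3e-24) and the interaction log2 value −0.73 (adjusted p = 2.26e-18). Hmcn1, a giant basement membrane protein, had 7.30, 6.77 and 5.35 CPM in the induced repressor libraries and 10.4, 10.1 and 10.4 CPM in the induced control libraries (log2 fold change −0.67, adjusted p = 1.25e-06), with an interaction that was not called (adjusted p = 0.275). Rspo3, a secreted enhancer of Wnt signalling, had 6.21, 4.63 and 6.41 CPM in the induced repressor libraries and 8.37, 8.87 and 9.16 CPM in the induced control libraries (log2 fold change −0.63, adjusted p = 3.8e-05). Trp53inp1, a p53 target that promotes growth arrest and autophagy, had 3.98, 4.43 and 5.03 CPM in the induced repressor libraries and 6.95, 7.04 and 6.73 CPM in the induced control libraries (log2 fold change −0.62, adjusted p = 0.000166). The induced groups overlapped in none of these 4 genes, which the naming rule required.

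A further 4 genes had a large interaction in the lower direction. Dhrs3, which reduces retinaldehyde to retinol, averaged 3.61 ± 0.225 CPM in the induced repressor and 5.26 ± 0.331 CPM in the induced control (SD, n = 3 each), and its interaction log2 value was −0.78 (adjusted p = 0.00457). The anion transporter gene Slc26a11 averaged 5.70 ± 0.524 CPM in the induced repressor and 8.06 ± 0.512 CPM in the induced control (interaction −0.74, adjusted p = 0.00037). Xdh, the xanthine dehydrogenase of purine breakdown, averaged 5.44 ± 0.859 CPM in the induced repressor and 7.46 ± 0.154 CPM in the induced control (interaction −0.74, adjusted p = 0.00116), and its induced call was lost without replicate 2 of the induced repressor (adjusted p = 0.086). Fmod, the collagen-binding proteoglycan fibromodulin, had 14, 12.3 and 12.6 CPM in the induced repressor libraries, against 19.8, 19.7 and 20.6 CPM in the induced control libraries. Without doxycycline it stood the other way round, with 21.3, 21.5 and 23.6 CPM in the repressor line and 19.6, 16.3 and 17.1 CPM in the control line (log2 fold change −0.64 induced and 0.32 uninduced, interaction −0.96, adjusted p = 2.75e-11).

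Fmod was 1 of the 32 genes called in opposite directions with and without doxycycline. Of these, 29 were lower in the induced repressor and higher in the uninduced repressor, each against its control, and 3 went the other way. The 29 held 13 members of the integrated stress response list and 4 fibroblast matrix genes, Fmod, Ogn, Col1a2 and Col1a1. The glycine transporter gene Slc6a9 averaged 24.1 ± 1.26 CPM in the induced repressor and 31.9 ± 3.23 CPM in the induced control, against 36.7 ± 2.12 CPM in the uninduced repressor and 30.3 ± 0.551 CPM in the uninduced control (SD, n = 3 each). Its interaction log2 value was −0.69 (adjusted p = 4.57e-09), and that of Megf6, a protein with repeated EGF domains, was −0.70 (adjusted p = 1.61e-05). The 3 genes of the other kind were Tmem171, Tm4sf1 and Anln. Tm4sf1, a tetraspanin-like surface protein, averaged 102 ± 3.98 CPM in the induced repressor and 93.8 ± 2.53 CPM in the induced control, against 80.8 ± 0.561 CPM in the uninduced repressor and 91.7 ± 2.35 CPM in the uninduced control. Some of these induced calls rested on single libraries. Megf6 was not called without replicate 2 of the induced repressor (adjusted p = 0.0607), Tm4sf1 without replicate 3 of the induced repressor or replicate 1 of the induced control (adjusted p = 0.127 and 0.0677), and Tmem171 without replicate 1 or 2 of the induced repressor or replicate 2 or 3 of the induced control (adjusted p from 0.105 to 0.164). DESeq2 did not call Tmem171 either (adjusted p = 0.094).

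Some of the 107 genes called in the same direction in both comparisons were close to absent from 1 line. These were chosen after their values were seen. Uroc1, which encodes the histidine-degrading enzyme urocanase, had 74 counts over the 3 induced repressor libraries and 0 over the 3 induced control libraries, and 107 counts in the uninduced repressor against 4 in the uninduced control. Dnah6, a heavy chain of axonemal dynein, had 122 counts in the induced repressor and 1 in the induced control, and 158 in the uninduced repressor against 2 in the uninduced control. In the other direction Gbp7, an interferon-inducible guanylate-binding protein, averaged 0.492 CPM in the induced repressor and 2.23 CPM in the induced control, and 0.353 CPM in the uninduced repressor against 2.96 CPM in the uninduced control (log2 fold change −2.14 induced and −3.04 uninduced). More abundant genes of this kind were the integrin gene Itga6 (−0.45 induced and −0.32 uninduced) and Hmga2, which encodes an architectural DNA-binding protein (−0.46 and −0.25).

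Among the most abundant called genes the differences were small. Col1a1, the main chain of type I collagen, averaged 7303 ± 75.5 CPM in the induced repressor and 8021 ± 191 CPM in the induced control, and Col1a2 3351 ± 17.1 CPM in the induced repressor and 3922 ± 98.5 CPM in the induced control (SD, n = 3 each). Fibronectin Fn1 averaged 4507 ± 65.2 CPM in the induced repressor and 5070 ± 123 CPM in the induced control. The nuclear noncoding RNA Malat1 averaged 3914 ± 124 CPM in the induced repressor and 4240 ± 167 CPM in the induced control, a difference not called when only total counts were used for scaling (adjusted p = 0.138). Higher in the induced repressor were the fatty acid desaturase gene Scd2 (1651 against 1544 CPM in the induced control), the collagen gene Col5a2 (1095 against 1023 CPM) and the tropomyosin gene Tpm1 (712 against 656 CPM). The calls on Scd2 and Col5a2 were each lost without at least 1 of the 6 libraries (adjusted p up to 0.111 and 0.0813), and that on Col5a2 also with total counts (adjusted p = 0.0969).

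Gene lists drawn from textbook membership are described by their counts of called members, read against the 5.06% of all genes called higher and the 5.86% called lower. Among protein-coding genes alone, which make up most lists, the shares were 6.42% and 7.12%. The median log2 fold change of all genes was 0. Called protein-coding genes were also more abundant, with medians of 38.6 CPM (higher) and 75.0 CPM (lower) against 24.1 CPM for those not called. The part of abundance in the shares of the lists was not tested. Members named without comment on their stability kept their call when any 1 of the 6 induced libraries was left out. Beyond the up to 2 members per direction with the lowest adjusted p, members were chosen for naming after their values were seen.

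**Figure D4:**
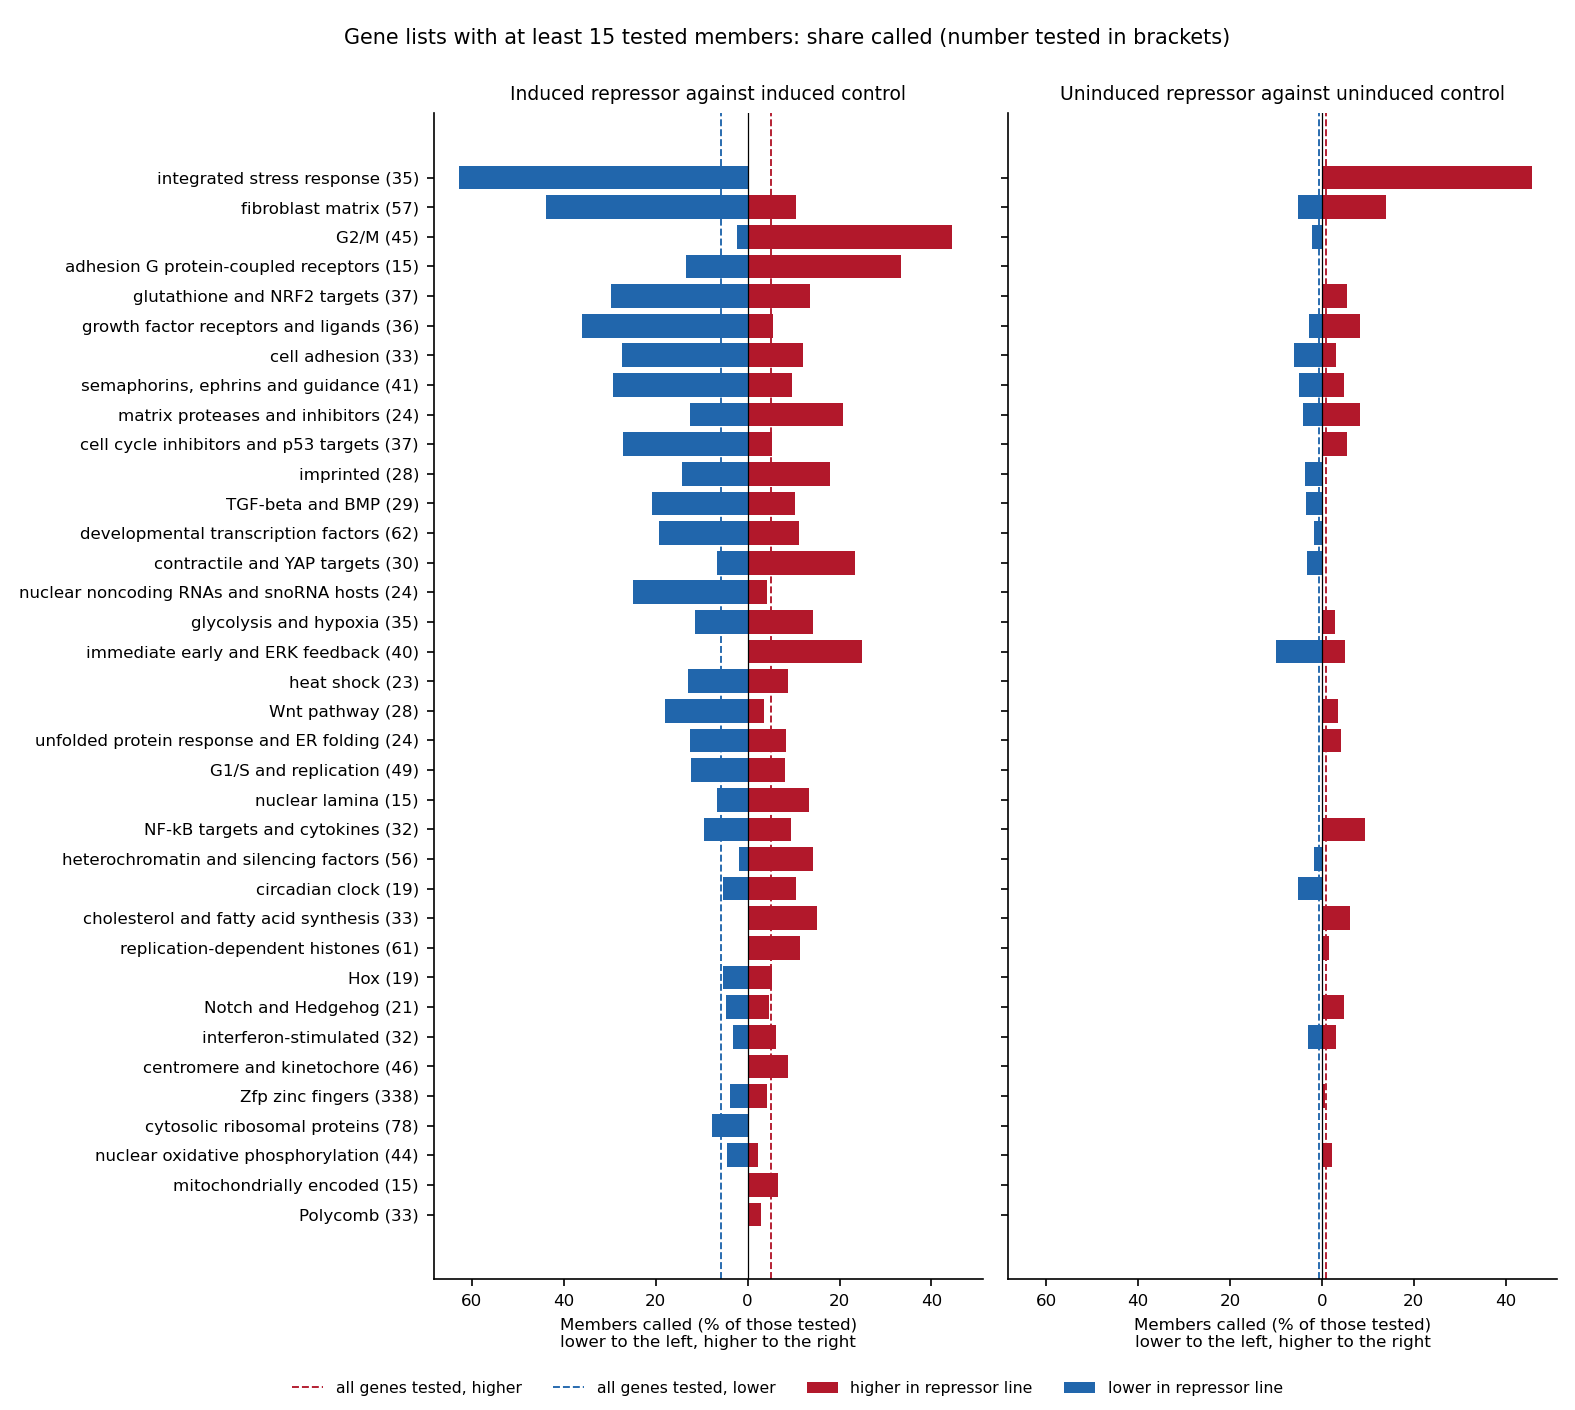
Share of tested members called higher (right) and lower (left) in the repressor line for each gene list with at least 15 tested members, between the induced lines (left panel) and between the uninduced lines (right panel). Dashed lines mark the same shares over all genes tested. The integrated stress response list reaches furthest to the left with doxycycline and furthest to the right without it.

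The integrated stress response is the programme in which the transcription factor ATF4 raises genes for amino acid synthesis, amino acid transport and tRNA charging when translation initiation is curbed. Of 35 tested genes of this list 22 were lower and 0 higher in the induced repressor than in the induced control, with a median log2 fold change of −0.16. Between the uninduced lines 16 were higher and 0 lower in the repressor line (median 0.13). The interaction was called lower for 26 of the 35 (median −0.27). The enzyme gene Asns, which makes asparagine, had 194, 186 and 190.4 CPM in the induced repressor libraries, against 224, 225 and 227 CPM in the induced control libraries, and 237, 246 and 244 CPM in the uninduced repressor against 219, 225 and 216 CPM in the uninduced control. Neither pair of groups overlapped. Of all genes tested, 25.7% did not overlap between the induced groups and 18.4% between the uninduced groups. The interaction log2 value of Asns was −0.38 (SE 0.04, adjusted p = 7.97e-12).

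The list holds the transcription factors, their target enzymes and transporters. Atf4 itself averaged 278 CPM in the induced repressor and 295 CPM in the induced control (log2 fold change −0.083, adjusted p = 0.0411), and Atf5, a related factor, 75.8 CPM in the induced repressor and 82.6 CPM in the induced control (−0.12, adjusted p = 0.0146). The calls on Atf4 and Atf5 were lost in 4 and 3 of the 6 fits that left out an induced library (adjusted p up to 0.22 and 0.0805). Trib3, a pseudokinase induced by ATF4, averaged 40.2 CPM in the induced repressor and 48.5 CPM in the induced control, against 58.2 CPM in the uninduced repressor and 46.1 CPM in the uninduced control (interaction −0.61, adjusted p = 2.43e-11). The serine pathway genes Phgdh, Psat1 and Psph were lower (−0.14, −0.25 and −0.21 on the log2 scale), as were Shmt2, Mthfd2 and Aldh1l2 of mitochondrial folate metabolism (−0.20, −0.14 and −0.33). Also lower were the amino acid transporter genes Slc7a5 (−0.18), Slc3a2 (−0.20) and Slc7a1 (−0.16) and the tRNA synthetase genes Aars (−0.11) and Gars (−0.11). Leaving out any 1 of the 12 libraries of both lines left 19 to 23 members called lower.

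The G2/M list holds genes that peak before and during mitosis. Of 45 tested, 20 were higher and 1 lower, with a median log2 fold change of 0.081. The uninduced lines differed at 1 gene, Anln, which was lower in the repressor line. The summed level of the list was 7183 to 7289 CPM in the induced repressor libraries and 6832 to 6864 CPM in the induced control libraries. Without doxycycline it was 7106 to 7134 CPM in the repressor line and 7181 to 7334 CPM in the control line. The induced control libraries thus lay below the other 3 groups. Foxm1, the transcription factor that drives many genes of this phase, had 245, 244 and 241 CPM in the induced repressor libraries, against 195, 193 and 192 CPM in the induced control libraries, without overlap (log2 fold change 0.33, SE 0.029, adjusted p = 1.08e-15). The proliferation marker Mki67 averaged 571 ± 12.9 CPM in the induced repressor and 494 ± 6.72 CPM in the induced control (SD, n = 3 each). Cyclin Ccnb2 (0.26), the ubiquitin-conjugating enzyme gene Ube2c (0.25), securin Pttg1 (0.22) and the kinase gene Plk1 (0.14) were higher too, and the interaction was called higher for 13 members. The mitotic kinesin gene Kif18a was the exception, with 59.5 ± 3.62 CPM in the induced repressor and 68.1 ± 0.856 CPM in the induced control. The count of 20 was lower without replicate 2 or 3 of the induced repressor (11 and 13) and without replicate 1 or 3 of the induced control (12 and 13), and DESeq2 called 13.

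Genes of the preceding phase did not move in 1 direction. Of 49 G1/S and replication genes 4 were higher and 6 lower, with a median log2 fold change of 0.00015. The DNA ligase gene Lig1 (0.14) and the helicase gene Mcm2 (0.094) led the higher ones, but both calls were lost without replicate 2 of the induced repressor (adjusted p = 0.0542 and 0.0826) and that on Mcm2 also without replicate 3 of the induced control (adjusted p = 0.132). Cyclin Ccnd2 averaged 759.9 ± 14.6 CPM in the induced repressor and 907 ± 19.8 CPM in the induced control (log2 fold change −0.26, adjusted p = 6.2e-13). Of 37 cell cycle inhibitors and p53 targets 2 were higher and 10 lower, and the median log2 fold change of the list was 0.0058. The 10 included Cdkn1a, the inhibitor p21 (−0.40, adjusted p = 0.00162), cyclin Ccng1 (−0.25), the kinase gene Plk2 (−0.24) and the death receptor gene Eda2r (−0.47). The 2 higher were the CDK4/6 inhibitor genes Cdkn2d (0.56) and Cdkn2c (0.22). The 10 became 6 without replicate 2 or replicate 3 of the induced repressor and with DESeq2. Of 61 replication-dependent histone genes 7 were higher and 0 lower (median 0.12), but the uninduced lines had the same lean (median 0.10), and the count ran from 4 (without replicate 2 or 3 of the induced repressor) to 18 (with no filter on low counts) over the alternatives.

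Of 57 fibroblast matrix genes 25 were lower and 6 higher in the induced repressor than in the induced control (median −0.086), while the uninduced repressor line had 8 higher and 3 lower. The interaction was called lower for 21 and higher for 0. Lox, the enzyme that crosslinks collagen and elastin, had 336, 317 and 315 CPM in the induced repressor libraries, against 408, 409 and 435 CPM in the induced control libraries, without overlap (log2 fold change −0.37, SE 0.029, adjusted p = 3e-18; interaction −0.46). Fibrillar collagens Col3a1 (−0.24), Col1a2 (−0.23) and Col1a1 (−0.14), the fibrillins Fbn1 (−0.20) and Fbn2 (−0.34), the fibulins Fbln2 (−0.20) and Fbln5 (−0.31), and the proteoglycan genes Vcan (−0.21) and Bgn (−0.12) were lower. The 6 higher were Col18a1 (0.58), Loxl4 (0.25), Emilin1 (0.23), Loxl2 (0.14), Col5a2 (0.098) and Nid1 (0.088), of which the last 3 lost their call in 1 to 3 of the 6 fits that left out an induced library (adjusted p up to 0.318). Tnc and Ltbp1 were lower without doxycycline as well. Of the 10 tested fibroblast markers, 6 were lower between the induced lines, Prrx1, Vim and the matrix genes Col3a1, Col1a2, Fn1 and Col1a1, whereas 4 were higher between the uninduced lines. The part of the share or state of fibroblasts in the matrix result was not tested.

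Matrix proteases and their inhibitors were mixed, with 5 higher and 3 lower of 24. The inhibitor gene Timp3 averaged 876 ± 22.8 CPM in the induced repressor and 1096 ± 24.6 CPM in the induced control (log2 fold change −0.32, adjusted p = 2.71e-17), and the aggrecanase gene Adamts5 393 ± 4.71 CPM in the induced repressor and 479 ± 5.89 CPM in the induced control (−0.28). The gelatinase gene Mmp9 was higher at a low level, 1.81, 2.24 and 1.64 CPM in the induced repressor libraries against 0.789, 0.826 and 0.702 CPM in the induced control libraries. Plaur, the receptor of the urokinase plasminogen activator, was higher by 0.20 on the log2 scale. The 5 higher became 3 without replicate 2 of either group and with DESeq2.

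Growth factor receptors and ligands leaned lower, with 13 lower and 2 higher of 36 (median −0.12), and 9 lower and 1 higher in the interaction. Among receptors, Egfr averaged 126 ± 3.87 CPM in the induced repressor and 151 ± 1.55 CPM in the induced control (log2 fold change −0.26, adjusted p = 4.19e-10). Fgfr2 (−0.24) and Met (−0.15) were lower too. Fgfr3 was higher (0.34), a call lost without replicate 3 of the induced repressor (adjusted p = 0.0779). Among ligands, Pdgfc (−0.45), Nrg1 (−0.41), Fgf7 (−0.35) and Kitl (−0.32) were lower. Of the genes for insulin-like growth factor binding proteins, Igfbp4 was lower (−0.24) and Igfbp7 higher (0.30), the Igfbp7 call being lost without replicate 2 of the induced repressor or replicate 1 of the induced control (adjusted p = 0.108 and 0.0521). Of the Wnt list 5 were lower and 1 higher of 28. The lower ones included Rspo3 and the antagonist gene Sfrp2 (−0.31), and without replicate 2 of either group these 5 became 2. Of the TGF-beta and BMP list 6 were lower, among them the receptor gene Tgfbr2 (−0.19) and the target gene Id2 (−0.24), and 3 higher of 29. The ligand gene Tgfb1 was higher, with 35.6, 35.3 and 35.7 CPM in the induced repressor libraries against 26.6, 27.8 and 27.2 CPM in the induced control libraries. The count of 6 was 3 without replicate 3 of either group, with total counts and with DESeq2.

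Of 40 immediate early and ERK feedback genes, which respond to growth signals, 10 were higher and 0 lower (median 0.088). Between the uninduced lines 2 were higher and 4 lower (median −0.037), the 4 being Dusp4, Dusp6, Etv4 and Phlda1. Egr1, an early response transcription factor, had 112, 114 and 112 CPM in the induced repressor libraries, against 76.3, 74.2 and 72.8 CPM in the induced control libraries (log2 fold change 0.60, SE 0.036, adjusted p = 1.85e-24). It was higher without doxycycline too (99.0 CPM in the uninduced repressor against 81.0 CPM in the uninduced control), and the difference was larger with it (interaction 0.31, adjusted p = 9.44e-06). The phosphatase gene Dusp1 (0.41), Ier2 (0.35), the transcription factor gene Klf4 (0.31) and the ERK pathway inhibitor gene Spred3 (0.29) were also higher. The count was 6 without replicate 2 of the induced repressor or replicate 3 of the induced control. Of 30 contractile genes and YAP targets 7 were higher and 2 lower. Ankrd1, a target of the coactivator YAP, had 74.2, 73.4 and 75.9 CPM in the induced repressor libraries, against 41.9, 42.2 and 39.3 CPM in the induced control libraries, with 37.7 CPM in the uninduced repressor and 36.3 CPM in the uninduced control (log2 fold change 0.86, SE 0.044, adjusted p = 1.47e-28). The YAP targets Ccn2 (0.46) and Ccn1 (0.24) and the smooth muscle genes Tagln (0.16) and Smtn (0.20) were higher, and Actg2 (−0.35) and Amotl2 (−0.11) lower. Both of the lower calls were lost in 4 and 3 of the 6 fits that left out an induced library (adjusted p up to 0.243 and 0.0849).

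**Figure D5:**
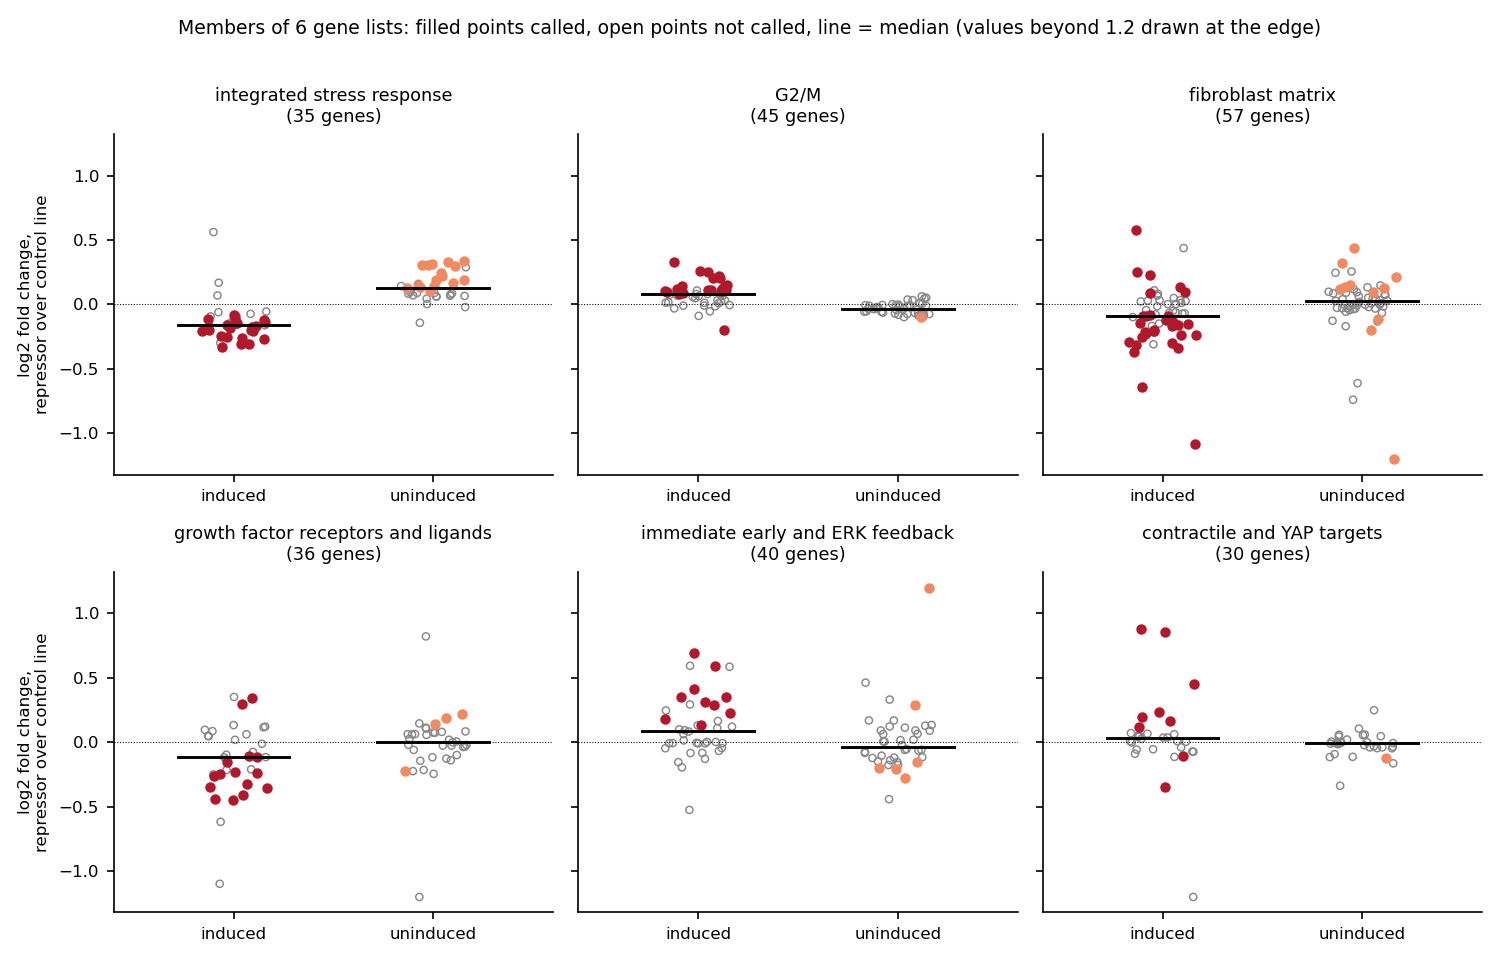
Log2 fold change of the repressor over the control line for every tested member of 6 gene lists, induced (left in each panel) and uninduced (right), with called members filled and the list median as a line. The integrated stress response members lie mostly below 0 with doxycycline and mostly above 0 without it, and the G2/M members lie mostly above 0 with doxycycline only.

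Of 15 adhesion G protein-coupled receptor genes 5 were higher and 2 lower (median 0.23), and 0 were called between the uninduced lines. Beside Adgrg1 these were Adgrf5, with 2.90, 3.09 and 3.12 CPM in the induced repressor libraries against 1.16, 0.696 and 0.784 CPM in the induced control libraries (log2 fold change 1.81, adjusted p = 1.07e-09), Celsr1 (0.47), Adgrb2 (0.30) and Adgre5 (0.25). Without replicate 2 of the induced repressor 3 of the 5 were called, Adgrb2 and Adgre5 missing the threshold (adjusted p = 0.065 and 0.0536). Adgrg2 (−0.28) and the latrophilin gene Adgrl2 (−0.25) were lower. Of 33 cell adhesion genes 9 were lower, among them the cadherins Cdh11 (−0.43), Cdh2 (−0.17) and Cdh3 (−0.17), and 4 were higher. The main fibroblast connexin gene Gja1 was lower (−0.16). Of 41 semaphorin, ephrin and guidance genes 12 were lower and 4 higher, and the largest of the 4 in log2 fold change was Ntn1, the secreted guidance cue netrin 1, at 63.7, 60.8 and 62.4 CPM in the induced repressor libraries against 45.4, 43.4 and 44.8 CPM in the induced control libraries (log2 fold change 0.48, adjusted p = 2.88e-15).

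Of 37 glutathione and NRF2 target genes 11 were lower and 5 higher (median −0.087). The higher ones included the transferase genes Gstm5, Gstt1 and Gstp1 (0.34) and the peroxiredoxin gene Prdx1 (0.11). The lower ones included the transferase gene Gsto1 (−0.33), the catalase gene Cat (−0.22), the peroxiredoxin gene Prdx6 (−0.14) and Gclc, the catalytic subunit of the enzyme that starts glutathione synthesis (−0.18). The 11 became 7 without replicate 2 of the induced repressor or replicate 3 of the induced control.

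Of 56 heterochromatin and silencing factors 8 were higher and 1 lower (median 0.018), among them the methyl-CpG reader Mbd1, with 28.9, 29.8 and 26.8 CPM in the induced repressor libraries against 21.1, 21.6 and 21.3 CPM in the induced control libraries (log2 fold change 0.42, adjusted p = 1.06e-07). Fam208a, which encodes the HUSH silencing subunit TASOR (0.16), and Morc3 (0.17) were higher, the H3 lysine 9 methyltransferase gene Setdb1 was called in the full fit (0.13), and Hmga2 was the 1 lower. The call on Setdb1 was lost without replicate 1 of the induced repressor or replicate 2 of the induced control (adjusted p up to 0.0828), and the 8 became 5 without replicate 1 or 2 of the induced repressor or replicate 1 of the induced control. Of 33 Polycomb genes 1 was higher, the reader Cbx7 (0.59), and of 46 centromere and kinetochore genes 4 were higher, among them Cenpf (0.20) and Cenpb (0.13), which encodes a protein that binds minor satellite DNA. Of 15 nuclear lamina genes 2 were higher and 1 lower, with Sun2, a linker of the nuclear envelope, at 111 ± 2.10 CPM in the induced repressor and 87.3 ± 2.32 CPM in the induced control. The 338 Zfp zinc finger genes, some of which bind repeats, held 14 higher and 13 lower, which is below the share of all genes in both directions. The 14 and 13 became 6 and 8 without replicate 2 of the induced repressor. Of 28 imprinted genes 5 were higher and 4 lower, and the higher ones included Meg3 (0.39) and Rian (0.30), noncoding RNAs of the Dlk1-Dio3 domain. The 5 became 3 when any 1 of the induced repressor libraries was left out. Of 7 tested germline and 2-cell-stage genes 0 were called.

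The remaining lists are given by their counts. Called higher and lower were 2 and 3 of 24 unfolded protein response genes, 2 and 3 of 23 heat shock genes, 2 and 1 of 32 interferon-stimulated genes, 3 and 3 of 32 NF-kB targets and cytokines, 5 and 4 of 35 glycolysis and hypoxia genes, 1 and 2 of 44 nuclear oxidative phosphorylation genes, 1 and 0 of 15 mitochondrially encoded genes, 1 and 1 of 19 Hox genes, 1 and 1 of 21 Notch and Hedgehog genes and 2 and 1 of 19 clock genes. Of 78 cytosolic ribosomal protein genes 0 were higher and 6 lower (median −0.050), a count that ran from 2 without replicate 1 of the induced control to 15 in the fit of 12 libraries. Of 33 cholesterol and fatty acid synthesis genes 5 were higher and 0 lower, but 0 were called without replicate 1 of the induced control. Of 24 nuclear noncoding RNAs and snoRNA host genes 6 were lower and 1 higher. Of 62 developmental transcription factors 12 were lower, among them Nr2f2 (−0.33) and Tbx18 (−0.33), and 7 higher, among them Foxf1 (0.40) and Lhx2 (0.32). The 7 became 4 without replicate 1 of the induced repressor or replicate 3 of the induced control. Of 9 sex-linked genes 5 were lower, Eif2s3x and the Y-chromosome genes Eif2s3y, Uty, Kdm5d and Ddx3y, of which Kdm5d and Ddx3y were lower without doxycycline too. Each of these 5 calls was lost in at least 1 of the 6 fits that left out an induced library (adjusted p up to 0.277).

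Of 19 tested markers of other cell types 3 were higher and 1 lower, 21.1% against the 10.9% of all genes. Tubb3, a neuronal tubulin, had 52.9, 53.4 and 52.3 CPM in the induced repressor libraries, against 34.0, 36.1 and 34.8 CPM in the induced control libraries (log2 fold change 0.59, adjusted p = 2.57e-18), and carried most of the summed neural markers, 54.6 to 55.5 CPM in the induced repressor and 36.0 to 37.8 CPM in the induced control. Of the neural list 1 of 4 tested genes was higher. Des and Tnnt2 made 2 of 4 tested muscle markers higher, the call on Tnnt2 being lost without replicate 1 or 3 of the induced repressor or replicate 3 of the induced control (adjusted p up to 0.252), with a summed muscle level of 10.8 to 12 CPM in the induced repressor and 7.43 to 8.78 CPM in the induced control. Lpl was the 1 of 2 tested fat markers that was lower, and the sum was 146 to 152 CPM in the induced repressor and 166 to 172 CPM in the induced control. None of the 1 tested epithelial, 2 endothelial, 5 macrophage and blood and 1 pluripotency markers was called. The part of such cells in the results was not tested.

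By chromosome, the median log2 fold change between the induced lines lay between −0.025 and 0.037 on the 19 autosomes and was −0.0013 on the X. On the Y, 10 genes were tested, 4 were lower, and the median was −0.17 with doxycycline and −0.15 without it. The first 10 Mb past the first annotated gene of each chromosome are the end nearest to the major satellite on the single-armed mouse chromosomes. There, 51 of 1181 genes were higher and 79 lower, 4.32% and 6.69%, with a median of 0. Over all genes tested the shares were near these, 5.06% and 5.86%. Between the uninduced lines 9 of the 1181 were higher (0.762%) and 13 lower (1.1%), against 0.863% and 0.703% of all genes.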

How the data were processed

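Total RNA of mouse embryonic fibroblast lines was made into stranded total RNA libraries and sequenced in pairs, per the labels' protocols. The authors deposited 1 table of raw gene counts, whole numbers for 47937 gene IDs in 18 libraries. The genome build was mm10 per the submitters' processing notes, but neither the aligner nor the counter, nor whether strand was used in counting, is given in the sources used here. IDs without a match in GENCODE M21 (GRCm38) held 0.0423% of the deposited counts.

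Genes were filtered with filterByExpr, scaled with TMM and tested with edgeR 4.0.16 (quasi-likelihood, robust) in R 4.3.3, with 1 coefficient per group over all 18 libraries, which left 12 residual degrees of freedom and 16216 genes. The contrasts were the repressor over the control line with doxycycline, the same without it, and the difference between these differences, each Benjamini-Hochberg adjusted over all genes. CPM were computed from the deposited counts and the TMM-scaled library totals. Satellite-bearing models were found by their sequence repeating at a fixed distance, and their counts were summed. Lists were read from textbook membership, and the members and lists were chosen with earlier results of these data known. Genes were named by rule: the 8 called protein-coding genes per direction with the largest log2 fold change at 5 CPM or more and groups apart, the 6 with the largest interaction in the same direction, up to 3 called in opposite directions, the 4 most abundant, and up to 2 per direction in each list with the lowest adjusted p. A few genes that meet the rule are not reported here. Genes named beyond that rule were chosen after their values were seen. Replicate numbers were checked for pairing: deviations of same-numbered libraries correlated between −0.0230 and 0.0298 over 18 pairs of libraries. These correlations are weak, but the same number correlated best in 12 cases, so the check does not settle whether the numbers mark pairs. The main fit used no pairing. No 2 libraries of a group agreed within counting noise. Alternatives were other scalings, no filter on low counts, DESeq2 1.42.0, limma-voom 3.58.1, a replicate block, smaller sets of libraries and leaving out each of 12 libraries. The scripts were tested on simulated counts. The 95% intervals cover the spread between libraries, and no interval was made from counts alone.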

Additional observations from a re-analysis of the deposited data

Results flagged for a closer look

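The difference between the repressor and the control line was larger or smaller with doxycycline than without it for 19 of the reported genes named for the size of their difference, by the edgeR interaction test over all genes. Only genes named for size were examined, so these are among the largest and not a sample of all genes. In all 24 genes were named for size, not all of them reported here. Reported genes such as Gstt1 and Hmcn1 did not pass the test, which called 2.73% of all genes. Some of the 19 were named for a called interaction, which for them was a condition of entry and not a result. Others were named for calls in opposite directions, and all 32 genes of that class passed the interaction test. In the higher direction the interaction log2 value was 2.944 for Adgrg1, 1.516 for Padi3, 1.014 for Syt13, 1.059 for Gstm5, 0.9428 for Slc29a3 and 0.9256 for Trim24. For each of these 6 genes all 3 induced repressor libraries lay above all 3 induced control libraries, which the naming rule required.

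In the lower direction it was −0.2906 for Pcdh9, −0.7318 for Kif26b, −0.9557 for Fmod, −0.5333 for Rspo3, −0.7106 for Trp53inp1, −0.7766 for Dhrs3, −0.7445 for Slc26a11, −0.7373 for Xdh, −0.6864 for Slc6a9 and −0.7003 for Megf6. Of these, Fmod, Slc6a9 and Megf6 were called lower in the induced repressor and higher in the uninduced repressor, each against its control. The interaction was 0.889 for Tmem171, 0.3071 for Tm4sf1 and 0.2058 for Anln, which were called higher in the induced repressor and lower in the uninduced repressor. Cell line, effector and dose cannot be told apart in any of these differences.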

How the results depend on the processing

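The log2 fold changes of the satellite sum and of the genes chosen by the naming rule kept their sign under every alternative tried. The balance of calls did not: with total counts for scaling 778 genes were higher and 750 lower between the induced lines, and 79 higher and 85 lower between the uninduced lines. DESeq2 called 500 genes higher between the induced lines, 62 higher and 63 lower between the uninduced lines, 117 higher in the interaction, and 48 genes in the same direction in both comparisons. With total counts 67 were called in the same direction in both. In the fit of the 12 libraries of both lines 213 were higher and 178 lower between the uninduced lines and 163 in the same direction in both, and with the compared libraries alone 269 were higher and 244 lower between the uninduced lines. The satellite sum was called between the induced lines by DESeq2 (log2 fold change −1.418), with 12 libraries (−1.402) and with the compared libraries alone (−1.407), and its interaction by DESeq2 (−1.166) and with 12 libraries (−1.137), while the other alternatives did not call it. The cause of these shifts was not tested.

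Leaving out 1 of 12 libraries gave 514 to 826 genes higher and 615 to 945 lower between the induced lines, both lowest without replicate 2 of the induced repressor. Between the uninduced lines it gave 58 to 155 higher and 45 to 122 lower, both lowest without replicate 2 of the uninduced control. The interaction had 132 to 171 higher and 187 to 236 lower, 47 to 98 genes were called in the same direction in both comparisons, 1023 to 1691 were called between the induced lines only, and 276 to 337 passed both the induced test and the interaction. The satellite log2 fold change lay between −1.64 and −1.27. Of 143 genes chosen by the naming rule and called between the induced lines, 34 lost the call under at least 1 alternative.

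A replicate block gave 892 higher and 1069 lower between the induced lines, moved no count over all genes by more than 1.5 times and did not call the satellite sum (log2 fold change −1.412). The same number correlated best in 12 of 18 cases, a hint from the data and not from the design. The share of induced calls in the higher direction was 46.4%, and 42.0% by DESeq2 and 50.9% with total counts. Genes under 1 CPM and the satellite sum are limited by their few counts.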

Other observations

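Single genes of lists without a clear lean in 1 direction differed by more than the medians of their lists. These genes were chosen after their values were seen. The share of members called was 21.7% for heat shock, 18.75% for NF-kB targets and cytokines and 15.8% for clock genes. It was 9.52% for Notch and Hedgehog and 7.99% for Zfp genes, against 10.9% of all genes. Hspa1b, the heat-inducible chaperone HSP70, averaged 5.48 CPM in the induced repressor and 2.98 CPM in the induced control (log2 fold change 0.87, edgeR adjusted p = 2.39e-06), against 2.37 CPM in the uninduced repressor and 2.22 CPM in the uninduced control. The clock gene Per2 was higher (0.34, adjusted p = 0.00213), as was Gli2, the transcription factor of Hedgehog signalling (0.35, adjusted p = 6.71e-06). The chemokine gene Cxcl1 was lower (−0.54, adjusted p = 1.34e-07), while Csf3, which encodes a growth factor for granulocytes, was higher (0.43, adjusted p = 0.000167). The zinc finger gene Zfp78 averaged 2.65 CPM in the induced repressor and 1.16 CPM in the induced control (log2 fold change 1.18, adjusted p = 1.55e-05). Each of these 6 calls held without any 1 of the 6 induced libraries.

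The genomic span of the called genes differed by direction, a grouping chosen after the data were seen. Among protein-coding genes the median span was 23137 bases for those higher in the induced repressor, 37428 bases for those lower and 23382 bases for those not called. Of 905 genes over 150 kb, 60 were higher (6.63%) and 147 lower (16.2%). Of 1394 genes under 5 kb, 81 were higher (5.81%) and 46 lower (3.3%). Over all protein-coding genes tested, 6.42% were higher and 7.12% lower. The median log2 fold change was small in both classes, −0.022 over 150 kb and 0.029 under 5 kb. Leaving out 1 library gave 33 to 59 higher (lowest without replicate 1 of the induced repressor) and 101 to 147 lower of the genes over 150 kb. Of the genes under 5 kb, 44 were higher and 30 lower without replicate 2 of the induced repressor, and the balance turned without replicate 3 of the induced control, with 46 higher and 58 lower. Between the uninduced lines 19 genes over 150 kb were higher (2.1%) and 29 lower (3.2%) in the repressor line. Among genes under 5 kb 13 were higher (0.933%) and 5 lower (0.359%). Over all protein-coding genes these shares were 1.1% and 0.83%. The uninduced median log2 fold change was −0.0069 over 150 kb and 0.026 under 5 kb, the latter close to its induced value. Lower genes were also more abundant, with a median of 75.0 CPM over the 6 induced libraries, against 38.6 CPM for the higher ones and 24.1 CPM for those not called.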
